A study of Mus musculus with 11 samples.

Results

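The genes described here make and burn fatty acids. They were taken from the deposited gene table by symbol, as 34 of its 55487 genes: 15 of synthesis, 14 of mitochondrial oxidation and 5 regulators. The rule itself used no measured value, but the members were chosen with earlier results of these data known.

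Fatty acid synthesis starts in the cytosol, where ATP citrate lyase (Acly) and acetyl-CoA synthetase (Acss2) make acetyl-CoA and malic enzyme (Me1) makes NADPH. Acetyl-CoA carboxylases (Acaca, Acacb) turn acetyl-CoA into malonyl-CoA, fatty acid synthase (Fasn) builds palmitate from it, and elongases and desaturases modify the chain. In oxidation, the carnitine shuttle (Cpt1a, Slc25a20, Cpt2) carries the acyl chain into mitochondria, where acyl-CoA dehydrogenases, the trifunctional protein and thiolase shorten it step by step, and electron transfer flavoprotein passes the electrons on. Malonyl-CoA blocks Cpt1a, so the pathways oppose each other. Activated T cells are known to switch on synthesis, and memory T cells and alternatively activated macrophages are known for oxidation.

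Bulk RNA was sequenced from mouse colon carcinoma cells of the MC38 line, which expressed either a non-targeting hairpin (shNC) or an Fgf21 hairpin (shFgf21), and from T cells labelled as sorted from the tumours they formed. The series asks how FGF21 made by the tumour affects infiltrating CD8+ T cells. There were 3 shNC and 2 shFgf21 sorted libraries, and 3 shNC and 3 shFgf21 libraries whose labels give tumour as the tissue and MC38 as the cell line. The genotype labels read WT for shNC and knockdown for shFgf21, and the label of shFgf21 sorted replicate 2 names FGF22. The hairpins were in the tumour cells, so cells sorted as labelled would differ by the tumour they came from. The sources used here do not give strain, age, sex or time after injection. Each sorted title joins several numbers, and the labels do not state that replicates are separate animals, so the p-values rest on a spread between libraries that may be technical.

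Totals ran from 14944013 to 19099350 counts per library. Fgf21 itself had 2 counts in shNC tumour replicate 2, 1 in replicate 6 and 0 in the other 9 libraries, so the knockdown could not be checked. Cell type markers went partly against the labels. In the sorted libraries, 12 macrophage and monocyte markers summed to 11550 to 19271 CPM (counts scaled to a common library total) and 18 T cell markers to 483 to 952 CPM. In the tumour libraries these sums were at most 47.8 and 3.05 CPM, with the CD3 gene Cd3e at 0 in all 6. The 8 fibroblast and mesenchymal markers summed to 12160 to 14442 CPM in sorted and 14473 to 18083 CPM in tumour libraries. The groups are therefore called sorted and tumour libraries, after their labels. Whether sorted libraries held RNA of hairpin-carrying tumour cells was not tested. In such bulk RNA, fewer cells of a type and less RNA per cell cannot be told apart, and this holds for every comparison of levels below.

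Promoter letters were not used to choose the members. RefSeq (GRCm38.p6) held 34 promoter windows for 29 of the 34 genes, each from 250 bases before to 50 after the start. The windows of Fasn (chr11:120824498-120824797, minus strand) and Fads3, a desaturase family gene (chr19:10041298-10041597, plus strand), are printed as examples of genes lower in sorted than in tumour libraries. The window of Hadhb, the beta subunit of the trifunctional protein (chr5:30155003-30155302, plus strand), is printed because it overlaps that of Hadha (chr5:30154931-30155230, minus strand). Capitals mark CCAAT, the box bound by NF-Y, on either strand, and each sequence reads 5′ to 3′ along its gene.
Fasn: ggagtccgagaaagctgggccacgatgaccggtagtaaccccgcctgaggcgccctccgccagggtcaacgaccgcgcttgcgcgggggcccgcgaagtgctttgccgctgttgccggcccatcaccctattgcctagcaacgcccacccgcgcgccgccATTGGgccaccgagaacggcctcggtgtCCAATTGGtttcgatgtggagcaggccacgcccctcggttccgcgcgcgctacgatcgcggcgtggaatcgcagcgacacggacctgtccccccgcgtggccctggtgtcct
Fads3: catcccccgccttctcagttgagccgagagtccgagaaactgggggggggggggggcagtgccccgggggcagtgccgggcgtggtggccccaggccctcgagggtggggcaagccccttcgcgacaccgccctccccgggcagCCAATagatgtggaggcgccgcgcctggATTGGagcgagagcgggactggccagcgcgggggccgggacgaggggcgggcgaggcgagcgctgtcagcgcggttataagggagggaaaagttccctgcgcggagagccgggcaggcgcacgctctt
Hadhb: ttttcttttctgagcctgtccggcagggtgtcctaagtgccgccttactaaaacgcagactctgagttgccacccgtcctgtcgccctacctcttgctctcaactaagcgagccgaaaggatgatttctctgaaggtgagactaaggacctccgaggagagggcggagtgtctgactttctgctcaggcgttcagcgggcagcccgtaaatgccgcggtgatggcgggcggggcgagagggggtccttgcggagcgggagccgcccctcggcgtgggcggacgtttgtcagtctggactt

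CCAAT was in 17 of the 34 member windows, against 37.4% of all 32851 windows in the table. By window, it was in 9 of 15 of synthesis genes and 5 of 13 of oxidation genes. By gene, where any window with it counts, 9 of 12 synthesis genes and 5 of 13 oxidation genes with a window had it. The 37.4% is a share of windows, and no such share by gene was taken. Of other genes lower in sorted libraries, in shNC or in shFgf21, Fads2, Acaca and Elovl6 had no CCAAT in their windows. For Scd1 and Fads1, also lower, there was no window. Gpam and Me1 each had a window with it and a window without it. In Fasn, the last CCAAT overlaps its reverse complement ATTGG, and both were counted. The sterol response letters TCACNCCAC and the direct repeat read by PPAR receptors, AGGTCA on both sides of any 1 base, were in 0 member windows, and in 1.24% and 0.0396% of all windows. The E-box CACGTG was in the window of 1 gene, Elovl5 (7.15% of all windows), and the GC box GGGCGG in 22 of 34 windows (35.7%). Both strands were searched throughout, and these matches describe the letters only.

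Measured per length, the most abundant synthesis genes were the stearoyl-CoA desaturases and Acly. In shNC sorted libraries, the deposited FPKM, a count scaled by gene length and library total, was 32.4 ± 20.3 for Scd2, 24.1 ± 1.38 for Acly and 23.8 ± 2.41 for Scd1 (SD, n = 3). These 3 levels did not differ beyond their spread. Elovl5, the elongase of polyunsaturated chains, followed at 15.9 ± 0.131 FPKM, Fads2 at 14.3 ± 1.38, Fads1 at 12.7 ± 1.36, Elovl1 at 9.25 ± 2.84 and Fasn at 8.78 ± 1.29. Acaca was at 1.05 ± 0.0668 FPKM, above Acss2 at 0.724 ± 0.0681 and Acacb, the mitochondrial form of the carboxylase, at 0.403 ± 0.0823.

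Among oxidation genes the order per length was led by Acadl, the long-chain acyl-CoA dehydrogenase, at 51.5 ± 2.65 FPKM in shNC sorted libraries. Etfa, a subunit of electron transfer flavoprotein, stood at 31.3 ± 1.20 and Acaa2, the mitochondrial thiolase, at 21.7 ± 1.44. Cpt1a, the outer and rate-limiting step of the shuttle, stood at 11.9 ± 1.30 FPKM and Cpt2, its inner partner, at 3.35 ± 0.209. Hadha and Hadhb make the subunits of 1 enzyme complex and, in the deposited coordinates, start 86 bases apart, head to head. Hadha nevertheless had 6.51 to 14.1 times the FPKM of Hadhb across the 11 libraries. Of the 50-base windows of Hadhb, 62.4% also occur in other annotated genes, Gm13910 and Gm9108, so its count is uncertain.

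The same caution holds for other members. Shared windows made up 67.3% of Etfb (with Gm45233), 52.6% of Acaca (with Gm5182), 32.8% of Me1 and 24.0% of Acadvl, which overlaps Dvl2. Acss2 lies over Gss for 22544 bases, and Elovl1, Etfdh and Acadl each overlap another listed gene with counts. How reads in shared stretches were assigned is not known from the labels. The close paralogs Scd1 and Scd2 shared 4.66% and 4.01% of their windows with Scd family genes.

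**Figure D1:**
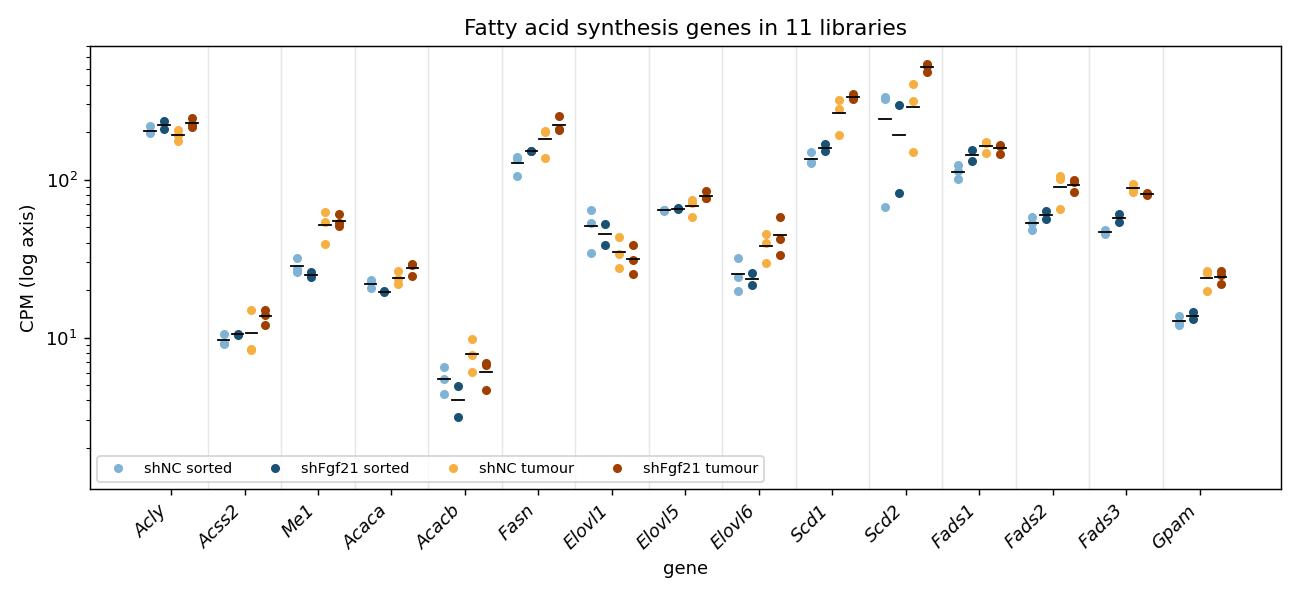
Level of the 15 synthesis genes in each of the 11 libraries, in CPM on a log axis. Points are libraries, coloured by group, and bars are group means. Scd2 spreads from 67.5 to 334 CPM within shNC sorted libraries, while Acly stays between 197 and 218 CPM there.

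The comparison of sorted libraries asks whether knockdown in the tumour moved these genes in the cells labelled as sorted. No member passed, since 0 of 32 tested members had an adjusted p under 0.05 by edgeR's quasi-likelihood test, where 0.079% of all 16454 tested genes did. DESeq2 and limma voom also called 0 members. At an unadjusted p under 0.05 there were 2 members, against 11.2% of all genes. Groups did not overlap for 12 of the 32 members, 7 higher and 5 lower in shFgf21, where 29.8% of all genes did not overlap (16.6% higher and 13.2% lower). The 15 synthesis genes had a median log2 fold change of 0.09 (9 positive, 6 negative) and all tested genes one of -0.01. With 1 library left out, the synthesis median ran from 0.029 (without shFgf21 replicate 1) to 0.081.

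The members with the smallest p in sorted libraries were desaturases. Fads1, the delta-5 desaturase of polyunsaturated chains (chr19:10182888-10196877), had 123, 114 and 101 CPM in shNC and 132 and 154 CPM in shFgf21 sorted libraries. Both shFgf21 values lay above all 3 controls, with a log2 fold change of 0.33 ± 0.12 (SE, edgeR, unadjusted p = 0.0255, adjusted p = 0.378). Fads3, of the same gene cluster (chr19:10041569-10060110), had 46.9, 45.6 and 47.9 CPM against 60.9 and 54.0 CPM. Its groups did not overlap either, and the log2 fold change was 0.28 ± 0.11 (edgeR, adjusted p = 0.406). Fads2, the delta-6 desaturase that lies between them, gave 0.15 ± 0.12 with overlapping groups.

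Fasn (chr11:120805846-120824547) had 140.1, 135 and 106 CPM in shNC and 153 and 152 CPM in shFgf21 sorted libraries. Scd1, which makes oleate from stearate (chr19:44394455-44407879), had 150.1, 129 and 128 CPM against 168 and 151 CPM. For both genes the shFgf21 libraries were just above the highest control, with log2 fold changes of 0.24 ± 0.13 (edgeR, adjusted p = 0.538) and 0.22 ± 0.11 (edgeR, adjusted p = 0.511). Without shNC replicate 3, the difference of Fasn came to 0.13. Acaca, the cytosolic carboxylase (chr11:84129672-84401651), went the other way, at 23.1, 22.4 and 20.5 CPM against 19.6 and 19.4 CPM. The groups did not overlap, and the log2 fold change was -0.19 ± 0.13 (edgeR, adjusted p = 0.617). Acly, which supplies the acetyl-CoA, had 200.4, 197 and 218 CPM against 209.6 and 236 CPM, so that its groups overlapped (0.10 ± 0.10).

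Scd2 (chr19:44293674-44306864) had the widest spread of the synthesis genes. It had 334, 67.5 and 324 CPM in shNC and 299 and 82.8 CPM in shFgf21 sorted libraries. In each group 1 library was low, shNC replicate 2 and shFgf21 replicate 2, while Scd1 stayed between 128 and 168 CPM in the same libraries. The log2 fold change was -0.36 ± 0.69 (edgeR, adjusted p = 0.882), and it was -1.56 without shFgf21 replicate 1 and 0.29 without shFgf21 replicate 2.

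Oxidation genes in sorted libraries had a median log2 fold change of 0.03, with 8 of 14 positive, and none passed edgeR's test. The median was -0.033 without shFgf21 replicate 2 and 0.12 without shFgf21 replicate 1. At an unadjusted p under 0.05 there were 0 of 14, and DESeq2 and limma voom called 0. Acads, the short-chain dehydrogenase (chr5:115110299-115119346), had 33.9, 25.0 and 33.5 CPM in shNC and 21.8 and 26.2 CPM in shFgf21. The lowest control lay between the shFgf21 values, and the log2 fold change was -0.38 ± 0.17 (edgeR, adjusted p = 0.461). Acaa2 had 42.8, 49.5 and 44.7 CPM against 35.8 and 41.3 CPM, without overlap (-0.26 ± 0.12, edgeR, adjusted p = 0.48). Cpt2 (chr4:107903981-107923610) had 19.3, 17.3 and 18.6 CPM against 11.8 and 17.1 CPM. Its shFgf21 replicate 2 was close to the lowest control, and the log2 fold change of -0.37 ± 0.18 (edgeR, adjusted p = 0.502) was -0.12 without shFgf21 replicate 1 and -0.65 without shFgf21 replicate 2.

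The entry, medium-chain and trifunctional steps did not pass either. Cpt1a (chr19:3322334-3385733) had 98.6, 105 and 122 CPM against 105 and 119 CPM, a log2 fold change of 0.03 ± 0.12 (edgeR, adjusted p = 0.954). Acadm, the medium-chain dehydrogenase (chr3:153922357-153944632), had 44.3, 45.8 and 47.2 CPM against 48.9 and 51.9 CPM (0.12 ± 0.10). Hadha (chr5:30118304-30155162) had 127, 129.6 and 122 CPM against 131 and 139 CPM (0.08 ± 0.09). Its partner Hadhb, whose count is uncertain, had 9.37, 11.9 and 9.80 CPM against 15.2 and 11.7 CPM, the largest positive log2 fold change of the oxidation genes (0.36 ± 0.19, edgeR, adjusted p = 0.532). For Acadm and Hadha both shFgf21 libraries lay above all controls, and for Cpt1a and Hadhb the groups overlapped.

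The regulators divide into receptors and coactivators. PPAR alpha (Ppara), the receptor that drives oxidation genes in liver, and the coactivator PGC-1 alpha (Ppargc1a) were too low to test, at no more than 0.337 and 0.289 CPM in any library. Pparg, the receptor of adipocytes and of some macrophages (chr6:115360951-115490399), had 2.83, 3.51 and 2.06 CPM in shNC and 1.56 and 1.91 CPM in shFgf21 sorted libraries. Both shFgf21 values were under the lowest control, with a log2 fold change of -0.70 ± 0.33 (edgeR, adjusted p = 0.487). Ppard, the ubiquitous PPAR (chr17:28232700-28301474), had 50.4, 59.0 and 57.0 CPM against 57.6 and 61.3 CPM, with overlap (0.08 ± 0.11). Ppargc1b, the coactivator PGC-1 beta, had 4.65, 7.09 and 8.80 CPM against 6.73 and 9.21 CPM (0.20 ± 0.28), also with overlap.

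Macrophage and neutrophil marker sums moved with the sorted groups. The macrophage sum was 11550 to 14043 CPM in shNC and 17899 to 19271 CPM in shFgf21 libraries, and 11 of its 12 markers had a positive fold change, with 0 called. At an unadjusted p under 0.05 by edgeR, 7 were higher and 0 lower, against 11.2% of all genes in both directions. Groups did not overlap for 8, all higher in shFgf21, against 29.8% of all genes in both directions. The T cell sum was 483 to 952 CPM in shNC and 572 to 692 CPM in shFgf21 libraries, inside the range of the controls. Of the 18 T cell markers, 14 were negative and 4 positive, with a median log2 fold change of -0.32. By edgeR, 2 were lower and 0 higher at an unadjusted p under 0.05, and 0 were called. The sum of 6 neutrophil markers was 159 to 219 CPM in shNC and 88.7 to 105 CPM in shFgf21 libraries. Of these, 5 were lower in shFgf21 without overlap and at an unadjusted p under 0.05 by edgeR, 1 was positive, and 0 were called. The part of these cells in the differences of the members was not tested. The 9 adipocyte markers summed to 10.4 to 16.0 CPM in shNC and 11.1 to 16.2 CPM in shFgf21 sorted libraries, of which Fabp4, a fatty acid binding protein that macrophages also make, gave 9.64 to 14.9 CPM. The other 8 were under 1 CPM on average in each sorted group, and the hormone Adipoq had at most 0.125 CPM in any library.

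**Figure D2:**
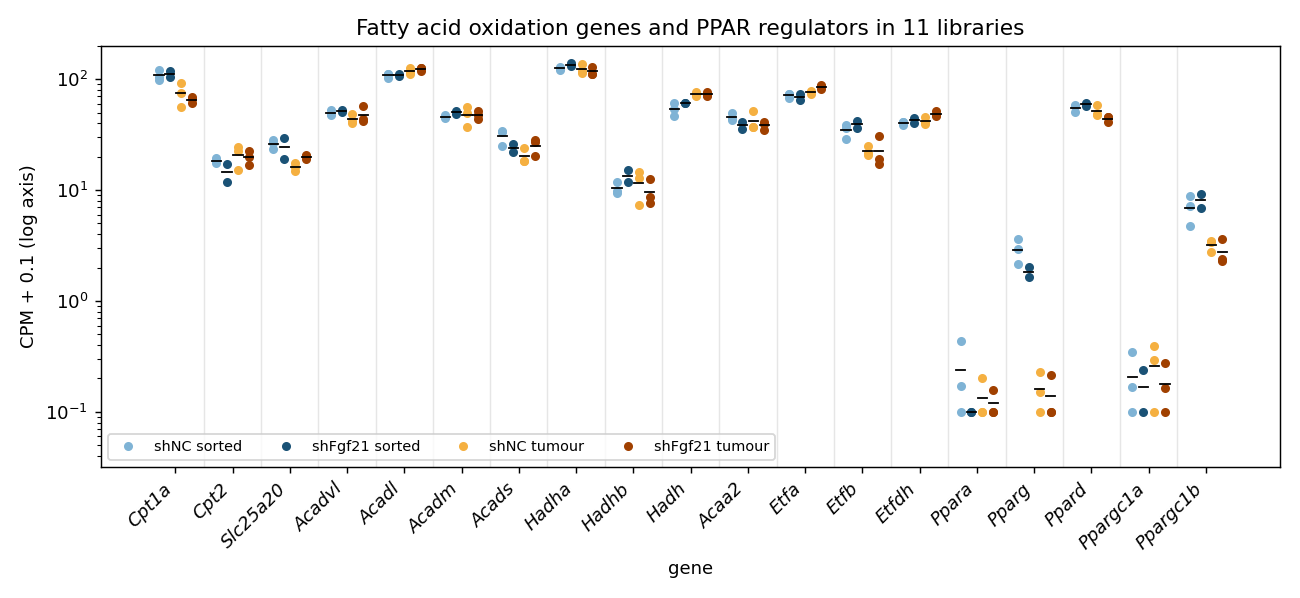
Level of the 14 oxidation genes and 5 regulators in each library, as CPM + 0.1 on a log axis, with group means as bars. Ppara and Ppargc1a lie near the bottom in all groups, and Pparg is at 1.56 to 3.51 CPM in sorted libraries and at no more than 0.130 CPM in tumour libraries.

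In tumour libraries, where the hairpin itself was carried, 0 of 31 tested members passed edgeR's test, against 0.0334% of all 14950 tested genes. DESeq2 and limma voom called 0 as well, and 1 member, Scd2, had an unadjusted p under 0.05 (6.22% of all genes). Pparg was too low to test. The 15 synthesis genes had a median log2 fold change of 0.19, 11 positive and 4 negative, and the 14 oxidation genes one of -0.01, 6 positive and 8 negative. All tested genes had a median of -0.01. The synthesis median came to 0.0097 without shFgf21 tumour replicate 2, 0.10 without shNC replicate 2 and 0.071 by limma voom. Groups did not overlap for 10 of 31 members, 8 higher and 2 lower in shFgf21, where 11.8% of all genes did not overlap (5.86% higher and 5.9% lower).

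Scd2 had 402 CPM in shNC tumour replicate 1, 316 in replicate 2 and 149.7 in replicate 6, against 479, 529 and 544 CPM in shFgf21 tumours. All 3 shFgf21 libraries were above all controls, and the controls spread widely. The log2 fold change was 0.83 ± 0.31 (edgeR, unadjusted p = 0.0245, adjusted p = 0.73), and 0.53 without shNC replicate 6. Scd1 had 280.3, 192 and 319 CPM against 323, 350.1 and 331 CPM, a log2 fold change of 0.34 ± 0.19 (edgeR, adjusted p = 0.857). Its groups did not overlap, though the highest control and the lowest shFgf21 library were close.

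Acly and Fasn gave the same order of groups. Acly (chr11:100476353-100528000) had 207, 176 and 193 CPM in shNC and 247, 227 and 217 CPM in shFgf21 tumours (0.26 ± 0.13, edgeR, adjusted p = 0.841). Fasn had 202, 138 and 201 CPM against 254, 205 and 210.1 CPM (0.30 ± 0.18, edgeR, adjusted p = 0.878). In both genes the lowest value was that of shNC replicate 2, and no shFgf21 library fell within the controls. Without that replicate the difference came to 0.14 for Fasn, 0.16 for Scd1 and 0.20 for Acly. Acaca had 23.5, 22.0 and 26.6 CPM against 29.2, 28.9 and 24.7 CPM, with overlap (0.19 ± 0.15).

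Of the oxidation genes in tumours, Slc25a20, the carnitine-acylcarnitine carrier (chr9:108662088-108684641), had 17.5, 14.6 and 16.0 CPM in shNC and 20.5, 20.0 and 19.1 CPM in shFgf21 libraries. The groups did not overlap, and the log2 fold change was 0.30 ± 0.15 (edgeR, adjusted p = 0.841). Etfdh, which hands electrons to ubiquinone, had 39.8, 40.8 and 45.9 CPM against 47.0, 51.2 and 47.5 CPM, without overlap (0.20 ± 0.13, edgeR, adjusted p = 0.887). Acads had 18.2, 23.8 and 18.1 CPM against 28.1, 20.2 and 27.1 CPM, with overlap (0.32 ± 0.19, edgeR, adjusted p = 0.871). Cpt1a had 74.4, 92.0 and 56.7 CPM against 61.7, 68.7 and 65.7 CPM, the shFgf21 values lying inside the range of the controls (-0.19 ± 0.18). Acadm and Hadha had fold changes of -0.01 ± 0.17 and -0.08 ± 0.13, with overlap. Among regulators, Ppard had 47.2, 59.1 and 48.2 CPM against 45.6, 41.1 and 45.8 CPM, all shFgf21 libraries below the controls (-0.23 ± 0.14, edgeR, adjusted p = 0.881, and -0.12 without shNC replicate 2). Ppargc1b had 3.38, 3.27 and 2.67 CPM against 2.31, 2.18 and 3.52 CPM, with overlap (-0.22 ± 0.30).

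Mesenchymal markers moved with the tumour groups. The 8 markers summed to 16324 to 18083 CPM in shNC and 14473 to 16145 CPM in shFgf21 tumours, without overlap. By edgeR 0 passed, 6 of 8 were negative, 4 of them at an unadjusted p under 0.05, and the median log2 fold change was -0.32. Their part in the differences of the members was not tested.

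**Figure D3:**
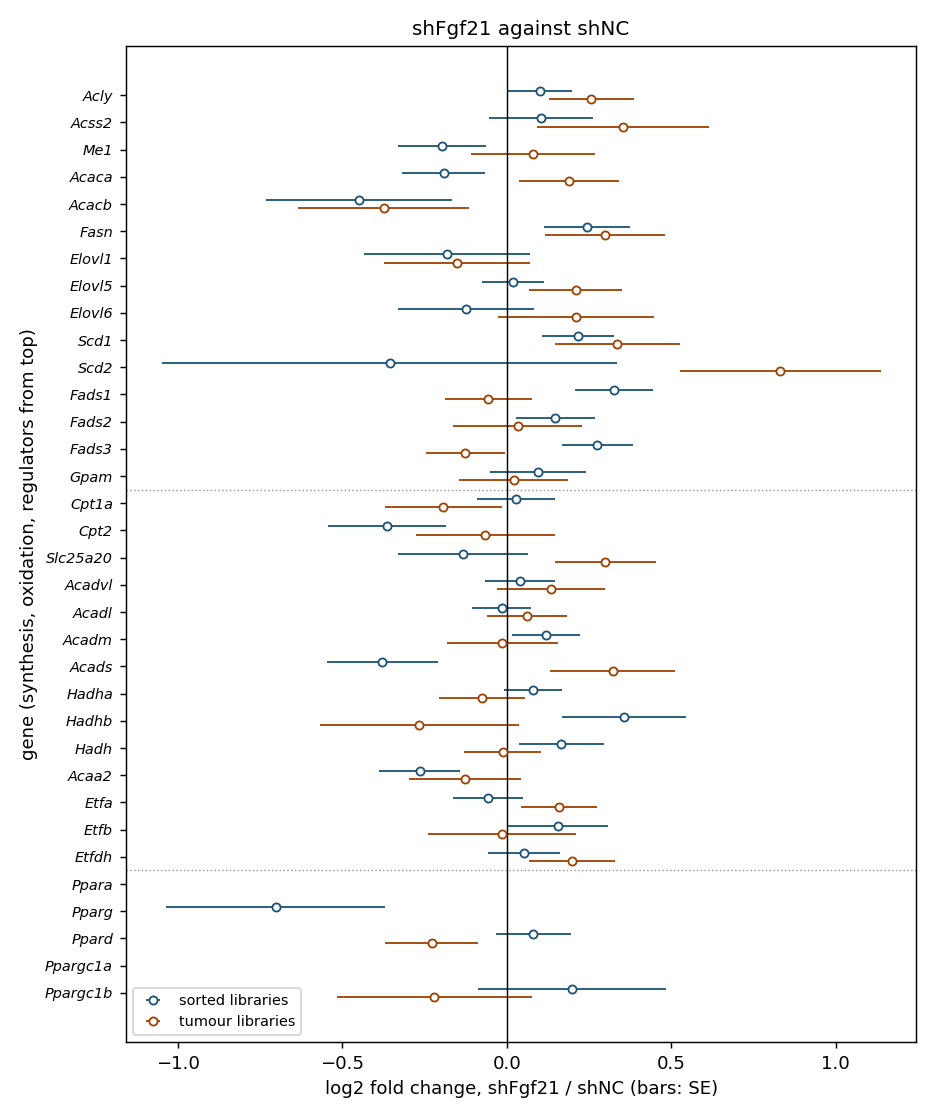
Log2 fold change of shFgf21 against shNC for each member in sorted and in tumour libraries, with SE as bars. All points are open because 0 members passed an adjusted p of 0.05, and Scd2 has the widest bar in sorted libraries (SE 0.69). Ppara and Ppargc1a were not tested, nor was Pparg in tumours.

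One tumour library, shNC replicate 2, stood apart in both classes. It was the lowest of the 6 tumour libraries for 9 of 15 synthesis genes, against 22.8% of all tested genes. It was the highest for 6 of 14 oxidation genes, against 24.4% of all genes, and the lowest for 2. By this measure shFgf21 replicate 1 was close to it, being highest for 5 of 14 oxidation genes, against 18.8% of all genes. Set against the mean of the other shNC tumours, the synthesis genes of shNC replicate 2 had a median log2 difference of -0.32 (12 of 15 below). Its oxidation genes had one of 0.25 (10 of 14 above), while the median of all genes was 0.02. Without this library, the oxidation median of the tumour comparison turned from -0.01 to 0.07, while the synthesis median moved most without another library, shFgf21 replicate 2, as given above.

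Summed over all 15 synthesis genes, the sorted groups overlapped (939 to 1299 CPM in shNC and 1107 to 1280.1 CPM in shFgf21) and the tumour groups did not (1337 to 1733 CPM and 1902 to 1958 CPM). Scd2 varied most within groups, so the sum was also taken without it, which was chosen after its values were seen. Without Scd2, synthesis genes came to 1020.5 CPM in that library, 1330.2 CPM in replicate 1 and 1363 CPM in replicate 6. The shFgf21 tumours had 1357 to 1429 CPM, overlapping the controls by a narrow margin. In sorted libraries the sum without Scd2 was 859.6 to 965 CPM for shNC and 981 to 1024 CPM for shFgf21, without overlap. Oxidation sums ran only from 701 to 824 CPM over all 11 libraries. In sorted libraries the highest oxidation sum was that of shFgf21 replicate 2, which was highest of 5 for 8 of 14 oxidation genes, against 25.8% of all genes. Against shFgf21 replicate 1 it had a median log2 difference of 0.17 over the oxidation genes, with 13 of 14 higher, while the median of all genes was 0.01.

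**Figure D4:**
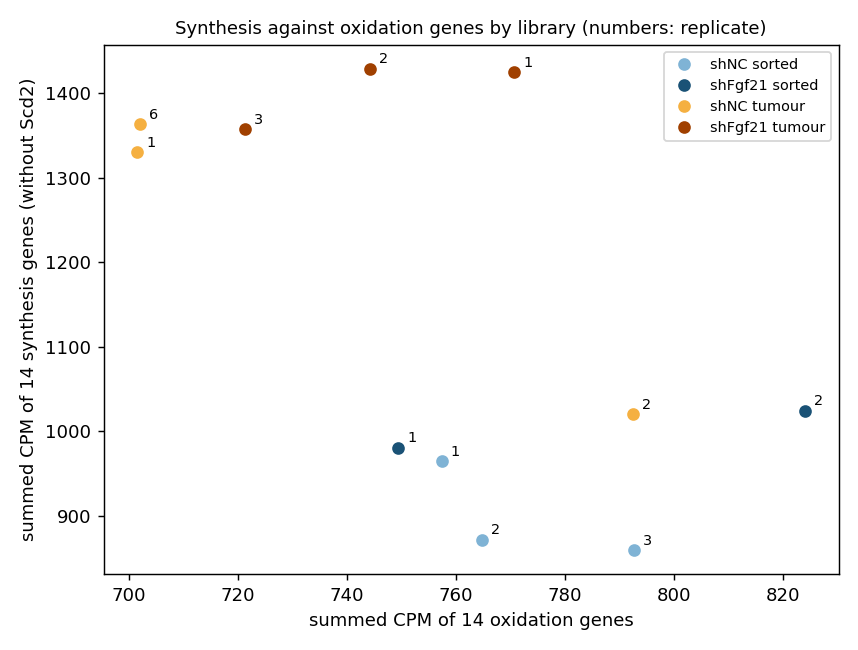
Summed CPM of 14 synthesis genes (without Scd2) against that of 14 oxidation genes, 1 point per library with its replicate number. Tumour libraries lie between 1330.2 and 1429 CPM on the synthesis axis, except shNC replicate 2 at 1020.5, which sits beside the sorted libraries at 859.6 to 1024 CPM.

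Whether knockdown acted differently in the 2 kinds of sample was tested directly as an interaction. By edgeR, 0 of 32 members passed, against 0.00577% of all 17327 genes, and DESeq2 and limma voom called 0. An unadjusted p under 0.05 was reached by 3 members (4.77% of all genes). They were Fads3, with a sorted minus tumour difference of 0.41 ± 0.15, Acads with -0.69 ± 0.27 and Fads1 with 0.39 ± 0.18. Their unadjusted p was 0.0158, 0.029 and 0.0458, and their adjusted p by edgeR was 1 in each case. Fads3 had no overlap in either kind, in opposite directions: higher in shFgf21 sorted libraries and, at 82.7, 81.5 and 80.2 CPM against 93.7, 83.7 and 87.9 CPM, lower in shFgf21 tumours.

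More members passed between the kinds of sample than with knockdown. In shNC libraries, 14 of 32 tested members passed edgeR's test between sorted and tumour libraries, against 33.4% of all 17327 genes, and in shFgf21 libraries 13 did, against 35.2%. Of 15 synthesis genes, 7 were lower and 0 higher in shNC sorted libraries, where 13.1% of all genes were lower and 20.3% higher. Of 14 oxidation genes, 4 were higher and 1 lower, closer to those shares. The median log2 difference was -0.53 for synthesis and -0.01 for oxidation genes in shNC, and -0.55 and 0.04 in shFgf21. Kind of sample, cell type and preparation cannot be told apart here, and both contrasts share a spread but no libraries. Some numbers joined in the sorted titles recur in tumour titles, and the labels do not say whether they name the same animals. Both contrasts treated all libraries as independent. In shFgf21, 0 synthesis genes were higher and 8 lower, and 2 oxidation genes were higher and 0 lower, against 21.6% of all genes higher and 13.6% lower. In both contrasts, 10 of 32 members passed in the same direction, as did 4652 of all 17327 genes.

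The lower synthesis genes in shNC sorted libraries were Scd1, Fads3, Gpam, Me1, Fads2, Fads1 and Fasn. Scd1 had 128 to 150.1 CPM in sorted and 192 to 319 CPM in tumour libraries, a log2 fold change of -0.96 ± 0.16 (edgeR, adjusted p = 0.000765). Fads3 was lower by a similar step, at -0.92 ± 0.10 (edgeR, adjusted p = 1.9e-05), from 83.7 to 93.7 CPM in tumours to 45.6 to 47.9 CPM. Gpam, which puts the first acyl chain on glycerol phosphate (chr19:55067268-55127238), had 13.6, 12.6 and 12.1 CPM in sorted and 25.7, 26.4 and 19.7 CPM in tumour libraries (-0.91 ± 0.15, edgeR, adjusted p = 0.000574). Sorted and tumour libraries were fully apart for these genes. Me1 (chr9:86581371-86695953) had 31.9, 26.0 and 27.2 CPM in sorted libraries and 62.1, 39.0 and 53.9 CPM in tumours (-0.86 ± 0.17, edgeR, adjusted p = 0.00187). Fads2 (chr19:10062765-10101746) had 58.1, 53.4 and 48.4 CPM against 105, 64.9 and 101 CPM (-0.76 ± 0.17, edgeR, adjusted p = 0.00471). In both, shNC tumour replicate 2 came nearest to the sorted libraries.

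Fasn was lower at -0.50 ± 0.16 (edgeR, adjusted p = 0.0337), a call that was lost without any 1 of the 3 sorted libraries or without tumour replicate 1 or 6, with adjusted p from 0.0504 to 0.148. In shFgf21 libraries, Scd1 (-1.07 ± 0.19), Me1 (-1.13 ± 0.19), Gpam (-0.82 ± 0.17), Fads2 (-0.63 ± 0.19), Fads3 (-0.50 ± 0.11) and Fasn (-0.55 ± 0.19) were again lower by edgeR, with Acaca (-0.50 ± 0.14) and Elovl6 (-0.92 ± 0.27). Fads1 did not pass there (-0.15 ± 0.13, edgeR, adjusted p = 0.397), having passed in shNC at -0.55 ± 0.12. Acly, at 0.10 ± 0.10 in shNC and -0.05 ± 0.12 in shFgf21, did not pass in either. Elovl1, the elongase of very long saturated chains, had positive values in both, 0.54 ± 0.25 and 0.52 ± 0.28, that did not pass.

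Of the oxidation genes, Cpt1a was higher in sorted libraries in both sets. It had 98.6 to 122 CPM in shNC sorted and 56.7 to 92.0 CPM in shNC tumour libraries, at 0.55 ± 0.16 (edgeR, adjusted p = 0.0207), and the log2 fold change was 0.78 ± 0.18 in shFgf21 (edgeR, adjusted p = 0.00511). The shNC call was lost without sorted replicate 3 (edgeR, adjusted p = 0.08) or tumour replicate 6 (edgeR, adjusted p = 0.0663). Slc25a20, the next step of the shuttle, was higher at 0.71 ± 0.17 in shNC (edgeR, adjusted p = 0.00628) and did not pass in shFgf21 (0.29 ± 0.19). Cpt2, the last step, did not pass in either (-0.16 ± 0.20 and -0.45 ± 0.23).

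Etfb, the other flavoprotein subunit, was higher at 0.63 ± 0.21 in shNC and 0.81 ± 0.23 in shFgf21 (edgeR, adjusted p = 0.0337 and 0.0156), and Etfa did not pass (-0.09 ± 0.10 and -0.30 ± 0.11). Etfb is among the members that share windows with another gene, so its count is uncertain. Its shNC call was lost without sorted replicate 2 or 3 or tumour replicate 1 or 6. Acads was higher in shNC at 0.62 ± 0.18 (edgeR, adjusted p = 0.021), a call lost without sorted replicate 1 or 3 or tumour replicate 1 or 6, and was at -0.07 ± 0.20 in shFgf21. Hadh, the hydroxyacyl-CoA dehydrogenase of shorter chains (chr3:131233419-131272101), was the 1 oxidation gene lower in shNC sorted libraries. It had 60.8, 46.7 and 53.8 CPM in sorted against 72.3, 77.5 and 70.9 CPM in tumour libraries, without overlap (-0.45 ± 0.11, edgeR, adjusted p = 0.00935). In shFgf21 its value was -0.26 ± 0.13 (edgeR, adjusted p = 0.138).

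Among regulators, Pparg had few counts outside the sorted libraries. There were 125 counts in the 3 shNC sorted libraries and 3 counts in the 3 shNC tumours, a depth-adjusted ratio of 46.8 with an exact 95% interval of 15.6 to 230.0 that covers counting error only. In shFgf21 it had 50 and 2 counts, a ratio of 38.8 (10.2 to 329.0). Pparg passed the filter on low counts through the sorted libraries, so it had to differ, and its place among the members that passed is no support for them. Both macrophage and adipocyte marker sums were higher in the sorted libraries. The macrophage sum was 11550 to 19271 CPM there and 33.3 to 47.8 CPM in tumours, and the adipocyte sum 10.4 to 16.2 CPM and at most 4.09 CPM. Fabp4, the 1 adipocyte marker that could be tested, was higher in sorted libraries (2.88 ± 0.57 in shNC, edgeR, adjusted p = 0.00226). It too passed the filter on low counts through the sorted libraries, so its difference is no support either. The part of these cells in the level of Pparg was not tested. Ppargc1b was higher in sorted libraries at 1.14 ± 0.28 in shNC and 1.57 ± 0.31 in shFgf21 (edgeR, adjusted p = 0.00819 and 0.00217). Ppard passed in shFgf21 (0.43 ± 0.14, edgeR, adjusted p = 0.0287) and not in shNC (0.11 ± 0.12). Leaving out shFgf21 sorted replicate 2 brought the shFgf21 count of members down from 13 to 5, and that of all genes from 6104 to 3739.

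**Figure D5:**
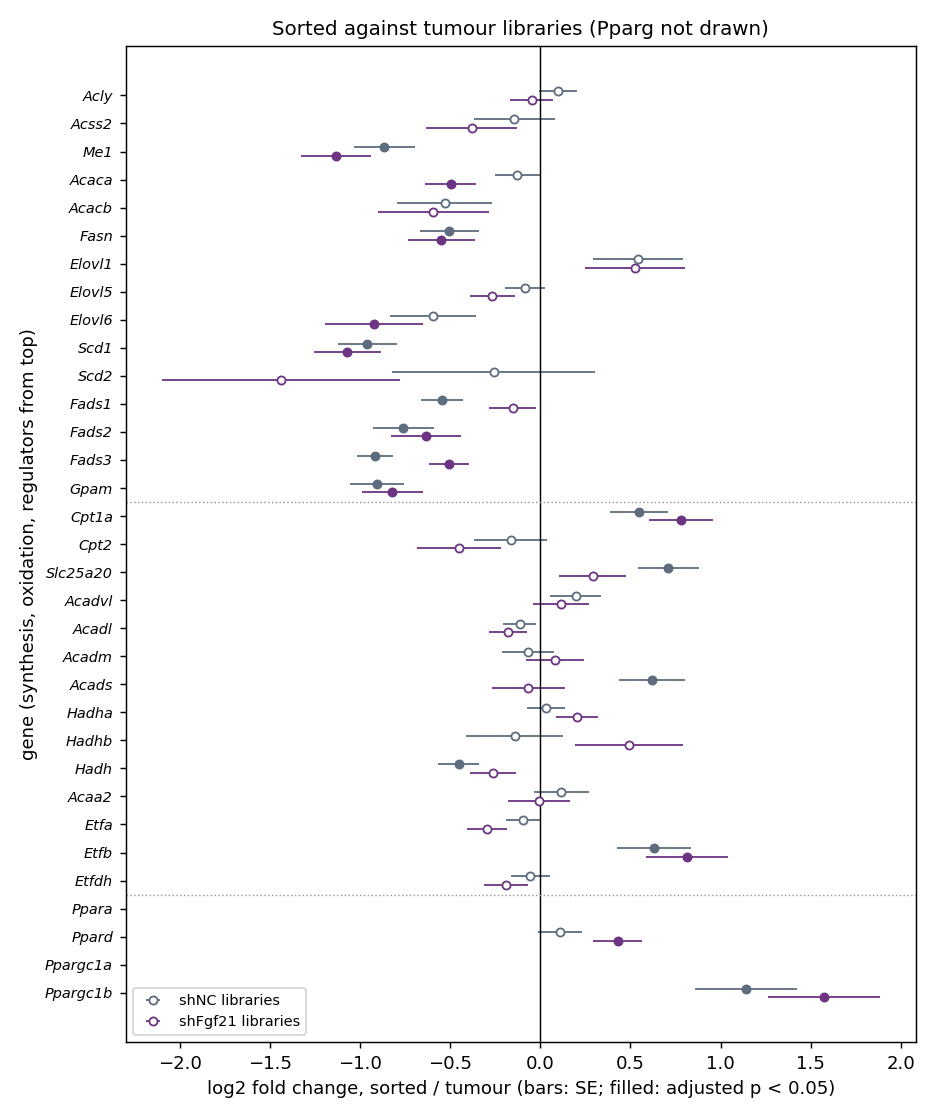
Log2 fold change of sorted against tumour libraries for each member, in shNC and in shFgf21 libraries, with SE as bars and filled points for an adjusted p under 0.05. Synthesis genes, above the first dotted line, have 7 filled points in shNC, all below 0. Pparg, nearly without counts in tumours, was not drawn.

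Further genes of lipid metabolism came from 10 lists around the members. In each of the 2 knockdown comparisons, 0 genes of each list passed edgeR's test in either direction. Tested in sorted libraries were 12 of 14 regulators of synthesis and citrate supply, 10 of 13 further elongation and desaturation genes, 9 of 10 genes of mitochondrial synthesis and 11 of 13 of activation. All 12 of glycerolipid synthesis, 16 of 17 further oxidation genes, 17 of 18 of peroxisomal oxidation, 8 of 12 of uptake and binding, 10 of 16 of lipid droplets and lipolysis and 12 of 14 receptor partners were tested too. In tumours, 3 to 16 genes of each list were tested. At an unadjusted p under 0.05 in sorted libraries, where 11.2% of all genes lie, lipid droplet genes had 1 positive and 3 negative and uptake genes 1 positive and 2 negative. Glycerolipid synthesis and receptor partners had 2 positive and 0 negative each, and elongation and peroxisomal oxidation 1 of each sign. Further oxidation had 1 positive, and the other 3 lists had 0.

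The negative genes with the smallest p handle fatty acid uptake and storage. Cd36, the fatty acid translocase, had 98.7, 98.4 and 181 CPM in shNC and 31.1 and 50.1 CPM in shFgf21 sorted libraries (-1.65 ± 0.32, edgeR, adjusted p = 0.162). Lpl, lipoprotein lipase, had 37.1, 41.6 and 58.2 CPM against 16.0 and 23.3 CPM (-1.23 ± 0.24, edgeR, adjusted p = 0.162). Both were without overlap, the shFgf21 libraries lying well under the controls. Plin2, which coats lipid droplets, had 430.0, 438 and 564 CPM against 289 and 336 CPM (-0.63 ± 0.14, edgeR, adjusted p = 0.226). G0s2, an inhibitor of the lipase Pnpla2, had 3.91, 10.95 and 4.06 CPM against 0.851 and 0.614 CPM (-3.11 ± 0.60, edgeR, adjusted p = 0.162).

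Positive values in sorted libraries came from Scp2, a peroxisomal thiolase and lipid carrier (0.63 ± 0.12, edgeR, adjusted p = 0.161), Agpat3, an acyltransferase of phospholipid synthesis (0.45 ± 0.10, edgeR, adjusted p = 0.204), and Rxra, the partner receptor of the PPARs (0.42 ± 0.10, edgeR, adjusted p = 0.235). DESeq2 called all 7 of these genes, with adjusted p of 0.0378 for Cd36, 0.000265 for Lpl, 0.0106 for Plin2, 7.29e-05 for G0s2, 0.00184 for Scp2, 0.0108 for Agpat3 and 0.0351 for Rxra. It called 246 genes in that comparison where edgeR called 13. The 7 genes were picked for a small edgeR p on the same counts, so these calls are no separate support. An unadjusted p under 0.05 was also reached by Crat (0.47 ± 0.16), Hsd17b12 (0.55 ± 0.23), Rxrb (0.47 ± 0.20), Agpat1 (0.28 ± 0.11), Tecr (-0.40 ± 0.12) and Abcd2 (-0.79 ± 0.29), none past edgeR's adjusted threshold. Neutrophil and macrophage markers moved with these libraries, as given above, and their part in the values was not tested.

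In tumours, the lists' smallest p belonged to Dgat2, which makes triglyceride, at 2.73, 2.60 and 2.21 CPM in shNC and 1.39, 1.18 and 1.04 CPM in shFgf21 libraries (-1.06 ± 0.29, edgeR, adjusted p = 0.58). Plin2 had 161, 192 and 114 CPM against 96.1, 103 and 115 CPM (-0.58 ± 0.19, edgeR, adjusted p = 0.67). The groups of Dgat2 did not overlap, and those of Plin2 met at their edges. Fabp5 (0.41 ± 0.18), Lipt1 (0.87 ± 0.36), Etfbkmt (0.46 ± 0.19) and Nr1h2 (-0.35 ± 0.13) also had an unadjusted p under 0.05 and did not pass.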

How the data were processed

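For 55487 genes in 11 libraries, the authors deposited gene counts in whole numbers, and FPKM values beside them. The genome build is mm10, per the submitters' processing notes. The aligner, counting program, annotation and strandedness are not named in the labels. The deposited FPKM equal count over a fixed gene length and library total (within 0.000844% over 9655 genes), and served only for levels between genes.

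Counts were tested as deposited with edgeR 4.0.16 in R 4.3.3: filterByExpr, TMM scaling, quasi-likelihood F test, and Benjamini-Hochberg adjustment over all tested genes at 0.05. Each knockdown comparison was fitted on its own groups, and the interaction and the comparisons of kinds on all 4 groups. The SE is the log2 fold change over the square root of F. CPM levels use TMM over the 11 libraries. A count of 0 allows 3 counts, 0.144 to 0.213 CPM, for counting error only. No replicate pair agreed within sampling noise (chi-square of at least 12.3 per gene).

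Members and lists were chosen with earlier results of these data known. Values per library are given for members past the threshold in a knockdown comparison, the 3 smallest p per class and comparison, the 5 largest called differences per class between kinds, and fixed enzymes and receptors. Up to 2 genes per pathway list and comparison are named, taken from those with an unadjusted p under 0.05. The cell type lists given with values are macrophage, T cell, neutrophil and adipocyte, and those of the other 5 are in the closing section. Alternatives were median-ratio size factors, no filter, a mean of 5 CPM, DESeq2 1.42.0, limma 3.58.1 voom with quality weights, all groups in one fit, the title number as a block, library totals for levels, and leaving out each library. The fits were tested on simulated data. Where a gene name occurred again (120 cases), the entry with most counts was taken. Shared windows and overlaps come from GENCODE M21.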

Additional observations from a re-analysis of the deposited data

How the results depend on the processing

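In both knockdown comparisons and the interaction, 0 members passed the threshold under every alternative run, each left-out library included. Counts over all genes were less stable. For sorted libraries (13 genes) they were 1 with no filter, 246 by DESeq2 and 1 with all 4 groups in one fit, and from 0 (without shFgf21 replicate 2) to 34 (without shNC replicate 3). For tumours (5 genes) they were 1 at a mean of 5 CPM, 115 by DESeq2, 21 by voom, 26 with all 4 groups in one fit, and from 0 (without shNC replicate 6 or shFgf21 replicate 3) to 8 (without shNC replicate 1). The tumour groups share the title numbers 1 and 2, whose deviations correlated at 0.165 and -0.154. Such correlations cannot decide whether the numbers pair tumours. With the replicate block, 131 genes and 0 members passed. The interaction (1 gene) gave 4 with no filter, 0 at a mean of 5 CPM, 33 by DESeq2, 3 by voom and from 0 (without either shFgf21 sorted library) to 4 (without shNC tumour replicate 1). Between kinds, 10 to 15 members (4542 to 5781 of all genes) passed in shNC and 5 to 11 in shFgf21 with 1 library left out, the lowest without shFgf21 sorted replicate 2. All genes that passed in shFgf21 then numbered 3739 to 6191. Fasn in shNC missed at a mean of 5 CPM (edgeR, adjusted p = 0.0501).

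Some signs turned, in differences that did not pass in any direction. In tumours Ppargc1b was 0.024 and Cpt1a 0.0050 by voom, and Acadm 0.10 with the replicate block. With 1 library left out, sorted Ppargc1b ran from -0.040 to 0.42, Cpt1a from -0.058 to 0.12 and Scd2 from -1.56 to 0.29. Tumour Acadm ran from -0.16 to 0.12 and Hadha from -0.14 to 0.0026. Between kinds in shNC, Scd2 ran from -0.57 to 0.20, Hadha from -0.0058 to 0.11 and Acadm from -0.20 to 0.067. The cause was not tested. Limits are 2 shFgf21 sorted libraries, 1 of them with a label naming FGF22, and a knockdown that could not be checked. A further limit is sorted libraries rich in macrophage and mesenchymal marker RNA. Pseudocounts for normalized values were not varied, since counts were deposited.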

Other observations

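Of the markers of other cell types, the mesenchymal genes had by far the highest sums. Summed over their lists, 7 hepatocyte markers reached at most 1.06 CPM in any library and 8 skeletal muscle markers at most 4.91 CPM. The 6 endothelial markers reached at most 33.4 CPM, in the shNC sorted libraries, and the 10 keratinocyte and sebocyte markers at most 74.0 CPM, in the shNC tumours. The keratinocyte and sebocyte sum was 40.4 to 44.9 CPM in shNC and 29.9 to 30.4 CPM in shFgf21 sorted libraries, without overlap. In tumours it was 57.6 to 74.0 CPM in shNC and 39.4 to 58.3 CPM in shFgf21 libraries, with overlap. The 8 fibroblast and mesenchymal markers, collagens and vimentin among them, summed to 12160 to 13497 CPM in shNC sorted, 12419 to 14442 CPM in shFgf21 sorted, 16324 to 18083 CPM in shNC tumour and 14473 to 16145 CPM in shFgf21 tumour libraries.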
